A study of Mus musculus with 6 samples.

Results

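The Myc, Max and Mxd network is a group of 10 genes whose proteins share the dimerisation partner Max: Myc, Mycn, Mycl, Max, Mxd1, Mxd3, Mxd4, Mxi1, Mnt and Mga. They were followed here through H3K4me3, the trimethylation of histone H3 at lysine 4 that marks active promoters, in a pro-T and a pre-B cell line. The genes were 10 of the 21938 protein-coding genes of GENCODE M21 outside the mitochondrial chromosome. The group was selected on the H3K4me3 peaks of these same lists, so that their marked state and the peak values below are a description without a test. H3K4me3 ChIP-seq had been performed with 2 ChIP libraries and 1 input library in each of 2 mouse cell lines, with the same antibody in both. Scid.adh.2C2 is a DN3-like T cell progenitor line, a subclone of Scid.adh from a spontaneous thymic lymphoma of the CB17-Prkdc scid background. The B-lineage cells were a pre-B line transformed by the Abelson virus. They are called pro-T and pre-B cells below. Neither line was treated, and each is a single transformed line. The deposited data held 1 peak list per line, in which the replicates were merged, so that the depth and the spread of the replicates were unknown.

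Myc, Mycn and Mycl are basic helix-loop-helix leucine zipper factors that pair with Max, bind the E-box CACGTG and activate genes of growth and metabolism. The Mxd proteins, Mxi1 and Mnt compete for Max and recruit the Sin3 histone deacetylase complex to the same sites. Mga, which also carries a T-box domain, pairs with Max within the polycomb complex PRC1.6. In early lymphocytes Myc is known as a target of Notch1 and IL-7 receptor signalling.

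A gene was counted as marked when a peak came within 2500 bp of any of its annotated transcription start sites (TSSs). In pro-T cells 7 of the 10 genes were marked, beside 45.5% of all protein-coding genes. In pre-B cells all 10 were marked, beside 48.2% of all protein-coding genes. The 3 genes that carried a peak in pre-B cells only were Myc, Mycn and Mycl, the 3 activators of the network, against 5.97% of all protein-coding genes in this state. No member was marked in pro-T cells only, and of the 9980 protein-coding genes marked in pro-T cells 9261 were marked in both lines. Max and the 6 genes for Max partners other than Myc factors were marked in both lines, a state found at 42.2% of all protein-coding genes. Peak heights are given as the authors' fold enrichment over background at the summit. As the scale of the fold enrichment was set separately in each list, its percentile among all peaks of the list is given beside it. The median was 20.3-fold over the 15513 peaks of pro-T cells and 15.4-fold over the 19604 peaks of pre-B cells. Every promoter peak of the 10 genes had the highest irreproducible discovery rate (IDR) score, 1000, as had 93.6% and 93.9% of all peaks.

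**Figure D1:**
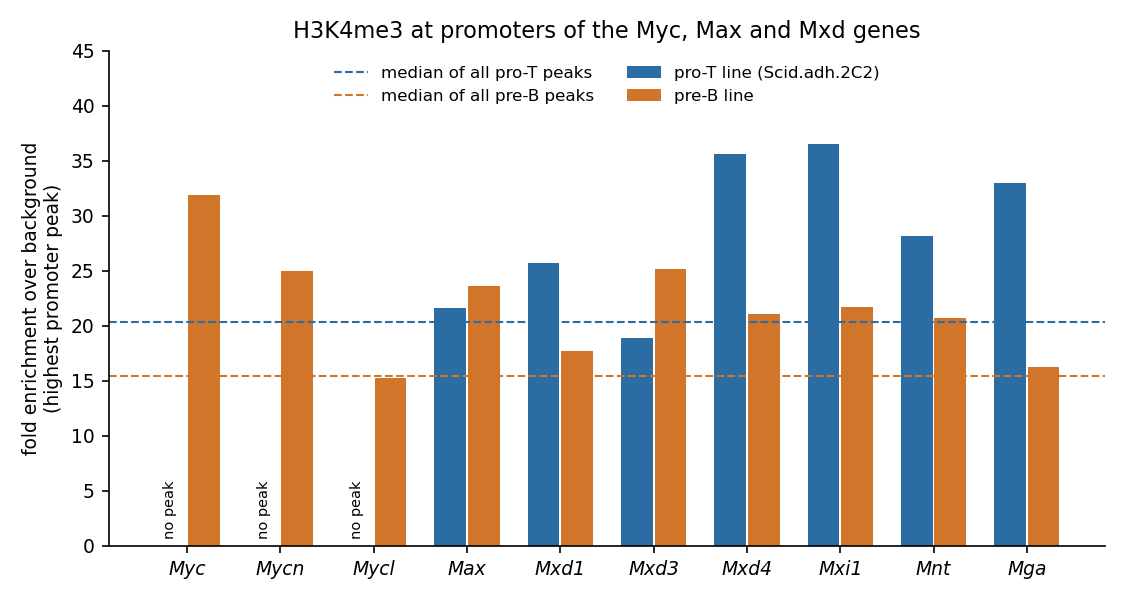
The fold enrichment over background of the highest promoter peak of each gene (y axis, linear) in pro-T cells (blue) and pre-B cells (orange), with the median of all peaks of each list as a dashed line. Bars have no error because each list combines both replicates. Myc, Mycn and Mycl have a bar in pre-B cells only, and Mga, Mxd4 and Mxi1 have the widest gaps in favour of pro-T cells.

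The lines carried the marks of their labelled lineages. All 7 T-lineage markers examined (Cd3e, Cd3g, Thy1, Gata3, Tcf7, Bcl11b, Lck) were marked in pro-T cells, and 2 of them, Tcf7 and Lck, also in pre-B cells. All 7 B-lineage markers, among them Cd79a, Cd79b, Ebf1, Pax5, Vpreb1 and Igll1, were marked in pre-B cells, and 1 of them, Vpreb1, also in pro-T cells. Vpreb1 was higher in pro-T cells (29.9-fold) than in pre-B cells (21.2-fold), and its pro-T peak also lay in the promoter window of Top3b. None of 4 myeloid markers was marked in either line. Of 4 erythroid markers Klf1 was marked in both lines and Epor at 8.84-fold in pro-T cells only, and of 3 stroma markers Col1a1 was marked at 10.6-fold in pre-B cells only.

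The sequences that accompany these marks are shown for 3 genes: Mycn as a promoter marked in 1 line only, Mxd4 as a strongly marked promoter of pro-T cells, and Mnt because its first TSS and its mark lay apart. H3K4me3 is typically found at CpG-rich promoters, and CpG dinucleotides are in capitals. The RefSeq promoter table (GRCm38.p6) had an entry for 9 of the 10 genes. The stretches run 5′ to 3′ on the strand of the gene and end at the first annotated exon. They are chr12:12941915-12942086 (minus strand) for Mycn, chr5:34187721-34187960 (minus strand) for Mxd4 and chr11:74830674-74830919 (plus strand) for Mnt. The last is chr11:74838158-74838457 (plus strand), the 300 bases around the summit inside an intron of Mnt in pro-T cells, read from the GRCm38 genome.
Mycn: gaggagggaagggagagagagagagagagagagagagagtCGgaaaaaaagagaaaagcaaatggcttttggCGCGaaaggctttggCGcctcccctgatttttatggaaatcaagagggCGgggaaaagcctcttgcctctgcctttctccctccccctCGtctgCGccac
Mxd4: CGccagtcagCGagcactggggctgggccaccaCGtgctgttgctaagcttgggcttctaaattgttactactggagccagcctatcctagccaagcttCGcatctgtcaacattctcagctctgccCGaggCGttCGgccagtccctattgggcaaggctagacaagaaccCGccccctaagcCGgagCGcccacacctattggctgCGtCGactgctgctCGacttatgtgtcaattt
Mnt start: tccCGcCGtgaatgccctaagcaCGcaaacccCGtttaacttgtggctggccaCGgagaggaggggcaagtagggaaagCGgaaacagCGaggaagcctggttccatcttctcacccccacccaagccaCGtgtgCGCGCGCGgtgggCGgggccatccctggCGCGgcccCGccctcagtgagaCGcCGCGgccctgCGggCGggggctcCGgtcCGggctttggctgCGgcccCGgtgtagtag
Mnt intron: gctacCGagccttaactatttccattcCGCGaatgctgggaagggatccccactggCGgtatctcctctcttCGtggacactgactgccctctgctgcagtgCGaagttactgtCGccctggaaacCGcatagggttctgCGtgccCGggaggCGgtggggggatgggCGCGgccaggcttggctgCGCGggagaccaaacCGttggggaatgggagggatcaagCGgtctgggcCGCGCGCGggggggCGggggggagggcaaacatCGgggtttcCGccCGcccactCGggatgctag

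The 11 RefSeq promoters of these 9 genes, each 250 bases before and 50 bases after a start, held between 14 CpGs at Mycn and 49 at a downstream promoter of Mxi1. The median over all 32851 promoters of the table was 7, with quartiles of 3 and 20. The E-box CACGTG, which reads the same on both strands and holds a CpG, occurred in 3 of the 11 and in 7.15% of all promoters. The 3 were those of Max, Mxd4 and the Mnt start, and at the Mnt start neither line had a peak. The 7.15% was not matched for CpG content, and all 11 held more CpGs than the median promoter. In Mxd4 and at the Mnt start the E-box stands in the printed stretches as caCGtg. Over the full length of their promoter peaks, the marked genes held 0.355 E-boxes per kb in pro-T cells and 0.199 in pre-B cells, compared with 0.212 and 0.196 over all promoter peaks of each list. The peaks at Myc and Mycn held 0. In pre-B cells 6 of the 17 promoter peaks of the members held an E-box, as did 31.3% of all promoter peaks.

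Myc (ENSMUSG00000022346, chr15:61985391-61990374, plus strand) carried a single peak of 6600 bp in pre-B cells, chr15:61983515-61990114. The peak ran from −1876 bp to 4723 bp relative to the first TSS and spanned all 6 annotated TSSs, so that it covered nearly the whole gene. Its fold enrichment was 31.9, higher than 98.7% of the peaks of the list, and its summit lay in an intron, 1161 bp after the first TSS. It was also wider than 99.4% of the peaks. In pro-T cells no peak passed the authors' thresholds in this region. Of the 303 protein-coding genes with a promoter peak at least as high in pre-B cells, 12.2% had no promoter peak in pro-T cells, and of the 423 whose promoter peaks were together at least as wide, 12.5% had none. Ranked by fold enrichment among the 1309 genes marked in pre-B cells only, Myc stood in position 38, Mycn in 198 and Mycl in 766. The 5 genes of this kind nearest to Myc in fold enrichment, a likeness in a single value of a single list, were Actn3 and Zdhhc24 at 31.9, which share their peak, Zfp110 at 31.9, and Smim27 and Topors at 32.1, which also share theirs. The Myc peak also came within the promoter window of the unclassified transcript Gm37947.

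Around Myc the lists held few other marks nearby. Within 100 kb of the gene the single peak of pro-T cells lay at the start of Pvt1, the long noncoding RNA gene next to Myc, with its summit 52.9 kb after the Myc TSS. It was 3072 bp wide with a fold enrichment of 29.1, and its counterpart in pre-B cells was 2688 bp wide with a fold enrichment of 17.5. The Pvt1 start was thus marked in both lines, with the Myc start unmarked in pro-T cells. On the upstream side the nearest peak was 2034 kb from Myc in pro-T cells (8.00-fold) and 1160 kb from it in pre-B cells, at the start of Fam84b (27.1-fold).

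Further downstream, within and beyond Pvt1, the lists differed in the number of peaks. From 100 kb to 2 Mb downstream pro-T cells had 3 peaks and pre-B cells had 15, none of them at an annotated TSS. The 3 peaks of pro-T cells were at 750 kb, 1138 kb and 1911 kb with 6.35-fold, 10.3-fold and 11.6-fold enrichment. The last 2 overlapped peaks of pre-B cells, at 6.94-fold and 11.3-fold. Of the 15 peaks of pre-B cells, 8 stood together within 47.9 kb, at chr15:63612414-63660354, with summits from 1627 kb to 1673 kb after the Myc TSS. This group was singled out after its values were seen. The 8 peaks were between 359 bp and 2235 bp wide, their fold enrichment ran from 5.05 to 12.0, and 7 of them had the highest IDR score. Pro-T cells had no peak in this stretch, and their nearest peaks were 489 kb before it and 235 kb after it. Enhancers that act on Myc in blood cells are known from this far downstream of the gene, but the lists do not tie these peaks to Myc.

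**Figure D2:**
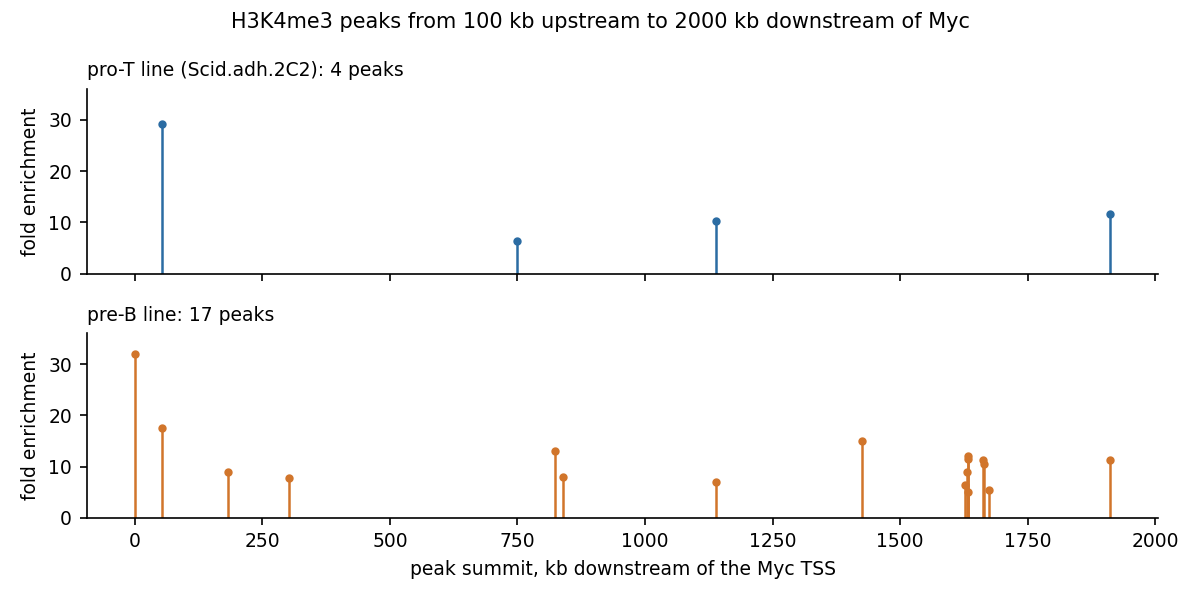
Fold enrichment (y axis) of every H3K4me3 peak from 100 kb upstream to 2 Mb downstream of the Myc TSS, against the distance of its summit from the TSS in kb, in pro-T cells (top, 4 peaks) and pre-B cells (bottom, 17 peaks). The peak at the Myc TSS and the 8 peaks between 1627 kb and 1673 kb are seen in pre-B cells only.

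Mycn (chr12:12936093-12941914, minus strand), the Myc factor best known from neural progenitors, carried 2 peaks in pre-B cells. The main peak, chr12:12936453-12941874, was 5422 bp wide with a fold enrichment of 25.0, higher than 86.9% of the peaks, and its summit was 2963 bp into the gene, in an intron. The other, chr12:12942098-12943359, was 1262 bp wide with a fold enrichment of 21.6 and a summit at −922 bp from the first TSS. A gap of 223 bp between them held the first TSS, and the whole Mycn stretch printed above lies in this gap. Pro-T cells had no peak at Mycn, and their nearest peaks were 306 kb away at Ddx1 (16.1-fold) and 1668 kb away at Gen1 and Smc6 (19.3-fold). Myc and Mycn thus shared long peaks over the gene body in pre-B cells. Their promoter peaks came to 6600 bp and 6684 bp in sum, wider than at 96.0% and 96.1% of the marked genes.

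Mycl (chr4:122995652-123002485, plus strand) was marked differently from the other 2 activators. Its single peak in pre-B cells, chr4:122995338-122997297, was 1960 bp wide, wider than the promoter peaks of 23.3% of the marked genes. Its fold enrichment of 15.2 was higher than that of 49.4% of the peaks. The genes on either side were marked in both lines, Mfsd2a at 30.7-fold in pro-T cells and 25.7-fold in pre-B cells, and Trit1 at 25.8-fold and 12.5-fold. The unmarked stretch in pro-T cells therefore lay between marked neighbours at Mycl, and in long stretches without any peak at Mycn and upstream of Myc.

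**Figure D3:**
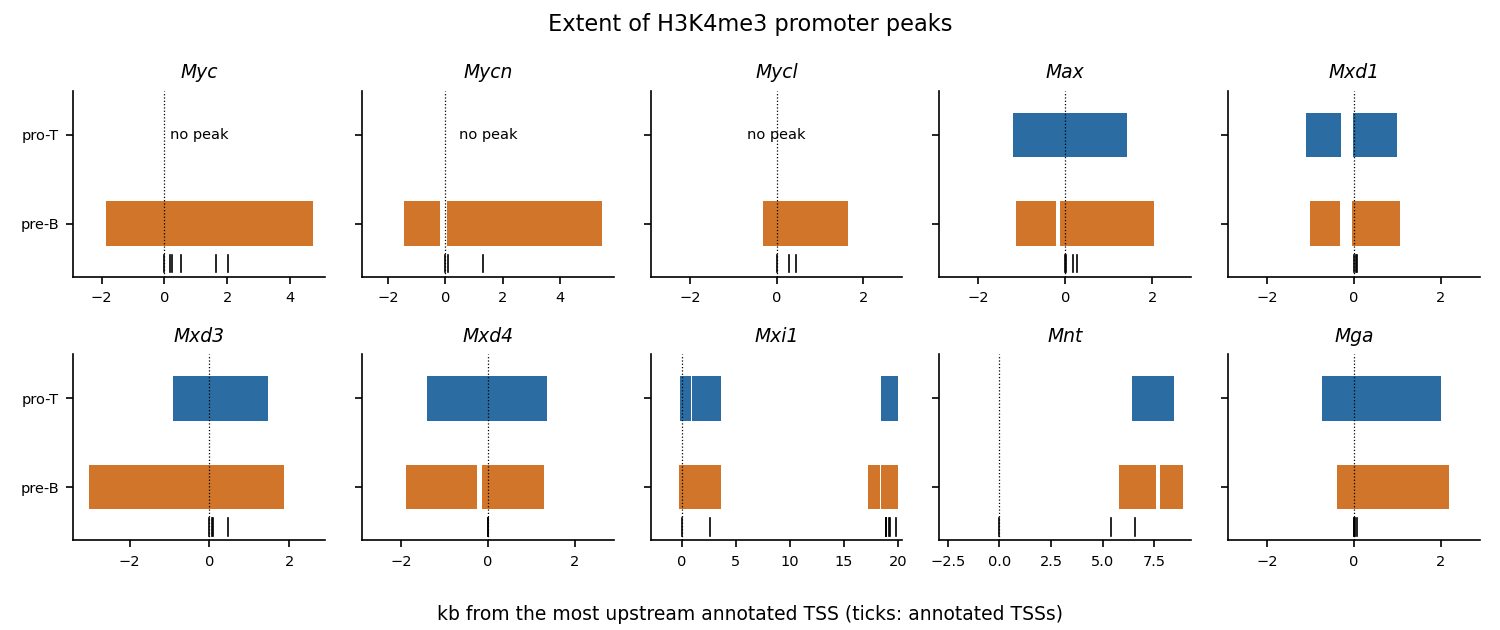
Extent of the promoter peaks of the 10 genes in pro-T cells (blue) and pre-B cells (orange), in kb from the most upstream annotated TSS of the gene (x axis, positive into the gene, a different range for each gene). Black ticks are the annotated TSSs within the range shown, and the dotted line is the most upstream one, which has no peak near it at Mnt in either line.

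Max (chr12:76937269-76962201, minus strand), the common partner, was marked at 21.6-fold in pro-T cells and 23.6-fold in pre-B cells. In pro-T cells a single peak, chr12:76960783-76963413, covered 2631 bp across the TSS and was higher than 53.5% of the peaks. In pre-B cells the region held 2 peaks of 2164 bp and 927 bp with 23.6-fold and 19.8-fold enrichment, separated by 100 bp, from −219 bp to −120 bp relative to the first TSS. The higher of them exceeded 82.3% of the peaks of its list. Max also showed how the 2500 bp limit worked: an intronic peak of 13.7-fold in pro-T cells and 10.3-fold in pre-B cells began 2971 bp and 2739 bp from the nearest TSS and was not counted. Of the counted peaks of the 10 genes, the farthest from a TSS was the second Mnt peak of pre-B cells, at 11.5-fold, which began 1208 bp from the nearest TSS.

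Of the 6 genes for the other Max partners, Mxd3 was the only one with a higher fold enrichment in pre-B cells than in pro-T cells. Mxd3 (chr13:55325168-55329823, minus strand), the Mxd factor known from dividing progenitors, carried a peak of 2372 bp in pro-T cells, chr13:55328365-55330736, at 18.9-fold, higher than 46.0% of the peaks. In pre-B cells the peak, chr13:55327958-55332827, was 4870 bp wide at 25.2-fold, higher than 87.5% of the peaks and wider than 97.6% of them. It reached to −3004 bp from the first TSS, compared with −913 bp in pro-T cells. Mxd3 was the 1 member of the 7 marked in both lines whose promoter peaks were at least 1.5 times wider in sum in pre-B cells (2.05 times), as at 18% of the 9261 genes marked in both lines.

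Mga, Mxd4 and Mxi1 had fold enrichments at least 1.5 times higher in pro-T cells, 3 of the 7 members marked in both lines, beside 25.6% of the 9261 genes. For Mxi1 the highest peaks of the lines lay in different TSS regions, as described below. Mga (chr2:119897228-119969581, plus strand) carried a single peak in each line at almost the same place, with summits 588 bp and 584 bp after the first TSS. Its fold enrichment was 33.0 in pro-T cells, higher than 88.5% of the peaks, and 16.3 in pre-B cells, higher than 53.3%, a ratio of 2.03. The widths were alike, 2745 bp and 2585 bp. At Mxd4 (chr5:34173883-34187720, minus strand) the peak of pro-T cells, chr5:34186367-34189120, was 2754 bp wide at 35.6-fold, higher than 93.6% of the peaks. In pre-B cells it was replaced by 2 peaks of 1433 bp and 1632 bp at 18.9-fold and 21.0-fold, with a gap of 110 bp, from −246 bp to −137 bp relative to the first TSS, most of which is in the Mxd4 stretch printed above. The higher of them exceeded 72.7% of the peaks.

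Mxi1 (chr19:53310518-53375810, plus strand) has annotated TSSs in 2 separate regions, and both were marked in both lines, the second with its summit 19271 bp after the first TSS in pro-T cells. The first region held 2 peaks in pro-T cells, of 1076 bp at 27.3-fold and 2705 bp at 36.5-fold, the latter higher than 94.8% of the peaks. In pre-B cells a single peak of 3904 bp at 21.2-fold spanned them. At the second region the peaks of the lines were nearly congruent, 1549 bp at 27.1-fold in pro-T cells and 1545 bp at 21.7-fold in pre-B cells. By percentile they stood at 71.3 in pro-T cells and 75.2 in pre-B cells, and the pre-B peak of the first region at 73.4. The highest peak thus lay in the first region in pro-T cells and in the second in pre-B cells. A further peak of 1123 bp at 12.5-fold, before the second region, was present in pre-B cells only. In sum the promoter peaks of Mxi1 covered 5330 bp in pro-T cells and 6572 bp in pre-B cells, wider than at 96.4% and 95.9% of the marked genes, as a sum over both regions.

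Mxd1 (chr6:86647042-86669161, minus strand), a factor that rises as cells leave the cycle, had the same pair of peaks in both lines. The peak over the TSS was 1032 bp wide at 25.7-fold in pro-T cells and 1090 bp wide at 17.7-fold in pre-B cells. The peak upstream was 816 bp wide at 17.0-fold and 680 bp wide at 8.63-fold. The gap between them measured 261 bp and 289 bp and ended at −29 bp and −34 bp from the first TSS. By percentile the higher peak stood at 66.6 in pro-T cells and 58.8 in pre-B cells. Mxd1 had the smallest summed width of the members in both lines.

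At Mnt (chr11:74830920-74845725, plus strand), the broadly expressed antagonist of Myc, neither line had a peak at the start of the full-length transcript, although the 300 bases of its RefSeq promoter hold 32 CpGs. The mark lay inside the gene, with its summit 7388 bp after this start in pro-T cells and 7185 bp after it in pre-B cells, in the intron after the fourth exon. The peak of pro-T cells, chr11:74837347-74839393, was 2047 bp wide at 28.2-fold, higher than 74.6% of the peaks. In pre-B cells the peaks were 1776 bp wide at 20.7-fold, higher than 71.0%, and 1130 bp wide at 11.5-fold. A weaker intronic peak, 7.66-fold, followed in pre-B cells only. Mnt counted as marked through 2 partial transcript models inside the gene, Mnt-202, which begins within coding sequence, and Mnt-203, which has no annotated coding sequence. With basic transcripts alone it was unmarked in both lines. Of the 9261 genes marked in both lines, 3.95% had no peak near their most upstream TSS in either line. The intronic stretch printed above holds 26 CpGs in 300 bases, and the printed stretch before the start holds 25 in 246 bases, so that the marked and the unmarked sequence were both rich in CpGs.

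Across the 7 members marked in both lines, the log2 ratio of the highest fold enrichment, pre-B over pro-T cells, ran from −1.02 at Mga to 0.42 at Mxd3. It was below 0 at 5 of the 7, beside 7046 of the 9261 genes marked in both lines. The median was −0.54, compared with −0.32 over the 9261 genes. The ratio of Mga was lower than at all but 6.17% of these genes, and the ratios of Max and Mxd3 were higher than at 82.6% and 92.6% of them. The difference of the percentiles, pre-B minus pro-T cells, was 28.8 points at Max and 41.6 at Mxd3, and −35.2 at Mga, −20.9 at Mxd4 and −19.6 at Mxi1. It was −7.84 at Mxd1 and −3.58 at Mnt. By their highest peaks the members thus stood at higher ranks in pre-B cells at 2 genes and at lower ranks at the other 5. At Mxi1 these were peaks of different TSS regions, and at its second region the rank was higher in pre-B cells.

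**Figure D4:**
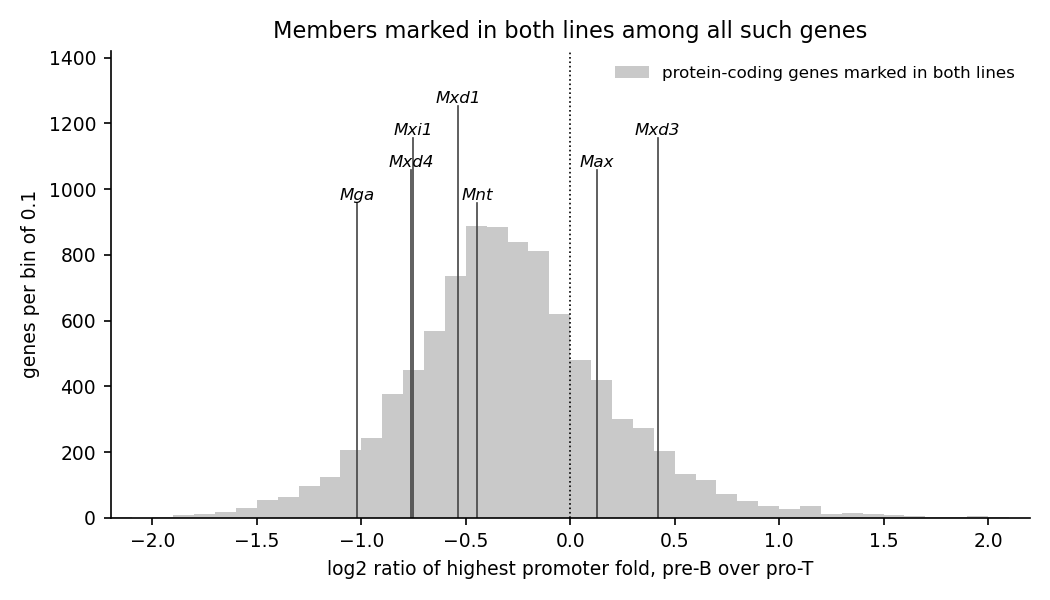
The log2 ratio of the highest promoter fold enrichment, pre-B over pro-T cells (x axis), for the 9261 protein-coding genes marked in both lines (grey, genes per bin of 0.1 on the y axis) and for the 7 members among them (labelled lines, whose height has no meaning). Mga, at −1.02, is at the low side, and Max and Mxd3 are the members above 0.

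Several members had their promoter mark split into separate peaks. In pre-B cells 6 of the 10 marked members had 2 or more promoter peaks (Mycn, Max, Mxd1, Mxd4, Mxi1, Mnt), beside 33.2% of all marked genes. In pro-T cells they were 2 of 7 (Mxd1, Mxi1), beside 25.8%. Max, Mxd4 and Mnt had a single peak in pro-T cells and 2 in pre-B cells. The sum of widths and the width of the highest peak gave different pictures. The median log2 ratio, pre-B over pro-T cells, was 0.23 for the sum and −0.20 for the highest peak, compared with 0.18 and 0.13 over the 9261 genes. The highest peak narrowed most at Mxi1, from 2705 bp in pro-T cells to 1545 bp in pre-B cells, where these were peaks of different TSS regions. What made the 2 measures differ was not tested.

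Most other genes of the pathway were marked in both lines. Of 62 genes in 6 lists, 59 were marked in each line and 57 in both, beside 45.5% of all protein-coding genes marked in pro-T cells, 48.2% in pre-B cells and 42.2% in both. The same shares stand beside the counts of the single lists that follow. A list of 12 genes held Myc coactivators and, apart from them, the zinc finger factor Zbtb17 (Miz1), and all 12 were marked in both lines. Smarcb1 (40.2-fold) and Kat5 (36.8-fold) were highest in pro-T cells, and the acetyltransferase Kat2a stood at 28.5-fold in pre-B cells. All 10 genes of the Sin3 corepressor and related complexes were marked in both, led by Sap30 (43.9-fold) and Rbbp4 (41.5-fold) in pro-T cells and by Rbbp4 (31.2-fold) and Sin3a (30.7-fold) in pre-B cells. In the PRC1.6 list all 9 genes were marked in pro-T cells and 8 in pre-B cells. The exception was E2f6, the E2F repressor of that complex, at 31.3-fold in pro-T cells and without a promoter peak in pre-B cells. The highest of this list were Cbx3 (36.3-fold) and Pcgf6 (32.0-fold) in pro-T cells, and Cbx3 (28.3-fold) and Pcgf6 (28.0-fold) in pre-B cells.

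Of the 10 genes that control Myc stability 9 were marked in both lines and Skp2, an F-box gene, in neither. Fbxw7, the F-box protein that targets phosphorylated Myc, was highest in pro-T cells (38.7-fold), followed by Fbxl14 (36.1-fold), and the kinase gene Gsk3b (26.3-fold) and Fbxw7 (24.9-fold) led in pre-B cells. In the Mlx branch, whose factors sense glucose products, Mlx and Mlxip were marked in both lines at 24.6-fold and 24.2-fold in pro-T cells and 21.6-fold and 27.4-fold in pre-B cells, and Mlxipl in pre-B cells only at 9.22-fold.

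Of 18 well-known Myc target genes 17 were marked in each line and 16 in both, beside 45.5%, 48.2% and 42.2% of all protein-coding genes. Among the 16 were genes of ribosome biogenesis such as Ncl, Nop56 and Npm1. The highest were Nme1 (44.2-fold) and Nop56 (38.7-fold) in pro-T cells, and Npm1 (31.1-fold) and Cdk4 (26.0-fold) in pre-B cells. Ccnd2, the gene of cyclin D2, was marked in pre-B cells only, with peaks of 7994 bp in sum at 20.4-fold, and Srm, the gene of spermidine synthase, in pro-T cells only at 24.4-fold. The median log2 ratio of fold enrichment, pre-B over pro-T cells, was −0.51 for the 16 targets marked in both lines and −0.32 for all 9261 genes marked in both lines.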

How the data were processed

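H3K4me3 ChIP-seq of Scid.adh.2C2 pro-T cells and of Abelson-transformed pre-B cells was analysed from the 2 deposited peak lists. Per the submitters' processing notes and the paper's methods, the authors used Trim Galore 0.6.7, mapped to mm10 (GRCm38) with Bowtie2 2.4.4, and called peaks with MACS2 2.2.7.1 against the input at a q-value threshold of 0.05. They kept the optimal set at an IDR threshold of 0.05. The deposited values are the IDR score, the fold enrichment (a ratio to background), the −log10 p-value and q-value, and the summit, and were used unchanged. A peak split or missing at a threshold can change a marked state or a width, and without counts no interval can be given.

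TSSs and genes were from GENCODE M21 (GRCm38). A gene was marked when a peak came within 2500 bp of any TSS. Lists and members were chosen with earlier results of these data known. Named are all 10 members, the 5 genes nearest to Myc in fold enrichment, and, of each list, genes marked in 1 line only and the 2 highest in each line. Other named genes serve as examples. Some genes that this rule selects are not reported here. Alternatives were windows of 1000 bp and 5000 bp, lists cut to equal length, peaks of at least 10-fold or of the highest IDR score, summits in the window, and fewer TSSs. The functions were tested on simulated data. No test between the lines was made. Python 3.11.15 and pandas 2.3.3 were used.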

Additional observations from a re-analysis of the deposited data

How the results depend on the processing

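Myc, Mycn and Mycl were marked in pre-B cells only under all 8 alternatives of window, peak set and TSSs. In pro-T cells their nearest peaks lay 50099 bp, 305998 bp and 16665 bp from a TSS. None of the alternatives could therefore have marked them in pro-T cells, and the agreement gives no support for their absence there. With only the most upstream TSS or basic transcripts, Mnt was unmarked in both lines. The median log2 width ratio of the 7 members, −0.20 for the highest peak, reversed to 0.23 with summed widths (an alternative added after the data were seen). With base pairs of the window covered it also reversed to 0.23. The peaks of Max, Mxd4 and Mnt were split in pre-B cells, and the highest peaks of Mxi1 lay in different TSS regions. Whether these account for the reversal was not tested. In percentile ranks of fold enrichment the members' median difference was −7.84 points, and that of all genes marked in both lines reversed to 2.74. Pathway genes marked in pre-B cells only numbered 2, and 1 at 10-fold or more, with the most upstream TSS, and with basic transcripts. No paired analysis was possible because each line has 1 combined list. Absence of a peak means only that none passed the authors' thresholds at an unknown depth.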
